A study of Mus musculus with 2 samples.

Results

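Cxcl9, Cxcl10, Cxcr3, Cxcl16 and Cxcr6, which encode the ligands and receptors of a pair of chemokine axes, were described across the cell types of YUMMER1.7 melanomas. They were taken by gene symbol as 5 of the 14654 genes of the deposited count table, and all 5 were present in it. YUMMER1.7 is an immunogenic mouse melanoma line, and its tumors were grown under the skin for 11 days in male C57BL/6 mice aged 8 weeks. The hosts were either wild type (WT) or Siah2-/-, lacking a RING finger ubiquitin ligase in the host but not in the grafted tumor cells. Tumors of each group were digested as a group (their number is not stated), live CD45+ leukocytes were sorted, and a minor share of CD45- cells was mixed back before droplet capture. Each genotype had 1 library, so genotype, tumor pool, cell suspension and library cannot be told apart, and no test across samples was possible. The question behind the comparison was how loss of Siah2 in the host alters the immune cells of the tumor.

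Chemokines are small secreted proteins that direct migrating leukocytes along gradients through receptors coupled to G proteins. Cxcl9 and Cxcl10, which interferon gamma induces in myeloid and other cells, bind Cxcr3, a receptor of activated T cells and NK cells. Cxcl16 is made as a transmembrane protein with a chemokine domain on a stalk, from which proteases release it, and its receptor Cxcr6 marks effector and tissue-resident T cells. Both axes are known for bringing T cells to tumors and for holding them near myeloid cells.

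In GRCm38 (GENCODE annotation), the protein-coding genes Cxcl9 (chr5:92321347-92328079) and Cxcl10 (chr5:92346638-92348889) are neighbors on the minus strand, with 18558 bases between them. Cxcr3 (chrX:101731535-101734269) and Cxcl16 (chr11:70453983-70459984) are also read from the minus strand, and Cxcr6 (chr9:123806475-123811760) from the plus strand. The 250 bases before the RefSeq starts of the neighbors Cxcl9 (chr5:92328080-92328329) and Cxcl10 (chr5:92348890-92349139) in GRCm38.p6 are shown because the pair shared its main cell type but differed in their levels among interferon-induced macrophages and CD45- cells. Both are read on the minus strand, 5′ to 3′, and capitals mark matches to the motifs searched.
Cxcl9: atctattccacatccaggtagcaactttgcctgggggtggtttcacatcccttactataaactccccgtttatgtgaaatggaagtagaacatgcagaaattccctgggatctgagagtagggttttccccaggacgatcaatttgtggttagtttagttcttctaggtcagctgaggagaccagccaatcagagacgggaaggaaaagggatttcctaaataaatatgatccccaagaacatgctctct
Cxcl10: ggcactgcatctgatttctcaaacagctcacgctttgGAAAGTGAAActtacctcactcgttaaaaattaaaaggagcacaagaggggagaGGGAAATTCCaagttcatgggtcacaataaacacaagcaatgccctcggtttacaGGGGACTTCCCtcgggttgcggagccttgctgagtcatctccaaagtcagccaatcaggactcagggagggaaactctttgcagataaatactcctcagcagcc
The interferon-stimulated response element core, the gamma-activated site TTCNNNGAA and the kappa B motif were searched on both strands. The Cxcl10 window held 1 response element core, with its first base at −213 from the start, and 3 kappa B matches, of which 2 overlapped in GGGGACTTCCC. The Cxcl9 window held none of these letters. Of 32851 RefSeq promoter windows of the same length, 2.98% held the response element core, 7.02% the gamma-activated site and 7.25% the kappa B motif. These matches are descriptions of sequence and not measured sites.

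There were 4512 cells in the WT library and 5563 in the library labelled Siah2-/- (called KO here). They held 64783869 and 59082428 unique molecular identifiers (UMIs), each of which marks 1 captured RNA molecule. The median was 11435 UMIs per cell in WT and 8699 in KO, and the smallest cell held 6670 and 4896 UMIs. The libraries shared 34 barcode sequences. Siah2 itself had 660 UMIs in WT and 505 in KO. The sources used do not say which part of the gene is deleted, and these 3′ counts do not check the genotype label. Cells were assigned to gates by UMIs of marker genes, which gave 1953 WT and 2235 KO macrophages, 66 and 66 dendritic cells (DCs), 413 and 745 CD8 T cells, 16 and 282 CD4 T cells without Foxp3, 50 and 58 Foxp3+ regulatory T cells (Tregs), and 385 and 594 NK cells. CD45- cells carrying Hmga2, a chromatin protein gene active in many tumors, numbered 561 and 77, and stromal cells numbered 92 and 12. The 3 melanocyte markers summed to 0.546 per 1000000 UMIs in the Hmga2 gate in WT and 2.04 in KO, with 1 of the 3 (Mlana) at 0 in both, so the gate is called by its gene.

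Levels are given as UMIs of a gene per 1000000 UMIs of the gate (CPM), and differences as the log2 of KO CPM over WT CPM. The intervals are 95% and cover counting error only. Orders of levels are over these 8 gates, and barcodes outside them are not ranked. Empty droplets, meaning barcodes of 1 to 100 UMIs, measured the RNA free in each suspension. They held Cxcl9 at 126 CPM in WT and 172 in KO, Cxcl10 at 363 and 385, Cxcl16 at 295 and 323, Cxcr3 at 51.0 and 74.9, and Cxcr6 at 137 and 249 CPM. Cells that do not make a gene held a few percent of such levels, as the T cell and NK reference genes showed in macrophages, where their median stood at 0.0232 of the empty-droplet level in WT and 0.0478 in KO. The summed CPM of the T cell marker list within macrophages was likewise 27.6 in WT and 75.5 in KO, with 0 of 5 markers at 0.

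**Figure D1:**
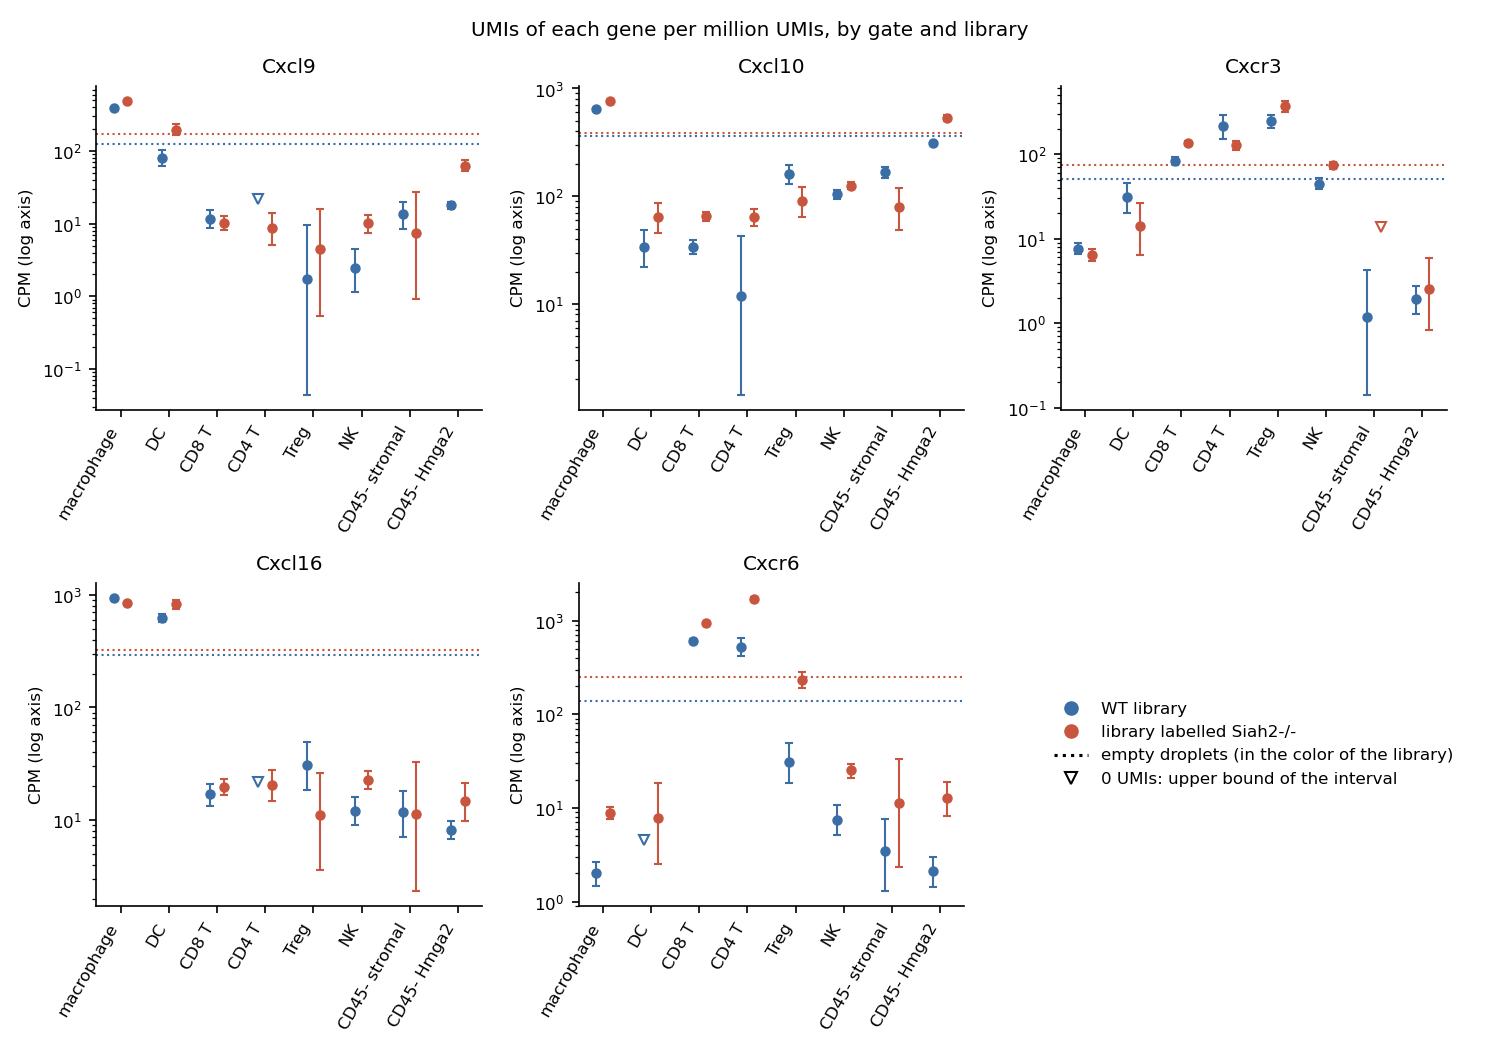
Level of each gene in CPM (log axis) by marker gate, in the WT library and the library labelled Siah2-/-. Bars are 95% counting intervals, dotted lines mark empty droplets, and triangles mark gates with 0 UMIs. Among the gates shown, Cxcl9, Cxcl10 and Cxcl16 were highest in macrophages, Cxcr3 in Tregs, and Cxcr6 in CD8 and CD4 T cells.

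Cxcl9 was above all a macrophage transcript. Macrophage-gated cells held 72.3% of its UMIs among the WT cells analysed and 68.4% among the KO cells, and most of the rest lay in barcodes positive for more than 1 gate (20.2% and 26.1%). In macrophages Cxcl9 stood at 388 CPM (379 to 396) in WT and at 484 CPM (475 to 493) in KO, from 8726 and 10814 UMIs. The KO level was higher by 0.32 on the log2 scale (0.28 to 0.36), while the median gene of that gate stood at −0.09. This lay under 1.5-fold, a size that 9.45% of the 12111 genes tested in macrophages exceeded upward. Thinned to 4000 UMIs per cell, 35.7% of WT and 42.8% of KO macrophages held a Cxcl9 UMI, against 48.6% and 54.9% unthinned at median depths of 9960 and 8767 UMIs. The production was uneven, since the tenth of macrophages with the most Cxcl9 held 65.5% of its UMIs in WT and 58.2% in KO.

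Dendritic cells came next in the order of Cxcl9 levels over the 8 gates. They held 80.7 CPM in WT and 197 CPM in KO, a log2 difference of 1.29 (0.85 to 1.75), and 17.0% of the 5792 genes tested in DCs were higher in KO past 1.5-fold. That value rested on 65 and 126 UMIs, of which 1 cell alone held 33.9% in WT and 33.3% in KO. Thinned to 4000 UMIs, 13.6% of DCs held a Cxcl9 UMI in each library, and the log2 difference was −0.36 when cells were thinned before gating. Without thinning the shares were 28.8% and 24.2%. Among DCs with Xcr1 and Clec9a, genes of the subset that cross-presents antigen, Cxcl9 was 76.6 CPM in WT (25 cells) and 536.5 CPM in KO (11 cells, of which 1 held 53.2% of the UMIs). The other DCs held 84.8 and 95.7 CPM, a log2 difference of 0.17 (−0.49 to 0.85). Lymphocytes held little, with 11.7 and 10.3 CPM in CD8 T cells and 2.43 and 10.1 CPM in NK cells. In WT 1 CD8 T cell held 64.3% of that gate's 56 Cxcl9 UMIs, against 8.11% in KO. In Hmga2-positive CD45- cells Cxcl9 stood at 17.9 CPM in WT and 63.2 CPM in KO, and 53.2% of the KO UMIs came from 1 cell. The summed macrophage marker list within that gate was 378 CPM in WT and 707 CPM in KO. Its part in the Cxcl9 and Cxcl10 differences of the gate was not tested.

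Cxcl10 shared the macrophages with Cxcl9 but reached further into other cells. Macrophages held 56.0% of its UMIs in WT and 60.7% in KO. Hmga2-positive CD45- cells held another 17.8% in WT (561 cells) and 3.72% in KO (77 cells). The macrophage level was 640 CPM (14403 UMIs) in WT and 758 CPM (16937 UMIs) in KO, a log2 difference of 0.25 (0.21 to 0.28). The share of macrophages with a Cxcl10 UMI was 39.6% in WT and 42.5% in KO after thinning, and 52.2% and 55.0% without it. Among all barcodes of at least 1000 UMIs the macrophage levels were 785 CPM in WT and 777 CPM in KO, with a log2 difference of −0.02, so the direction in macrophages depended on which barcodes were kept. The tenth of macrophages with the most Cxcl10 held 67.9% and 68.7% of its UMIs.

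Hmga2-positive CD45- cells came after macrophages in Cxcl10 level among the 8 gates in both libraries. It was 312 CPM in WT and 530 CPM in KO, with a log2 difference of 0.76, although 33.9% of the KO UMIs came from 1 cell against 6.53% in WT. In that gate 12.1% of the 11357 genes tested were higher in KO past 1.5-fold and 12.8% lower. Below them stood stromal cells (167 and 78.8 CPM), Tregs (161 and 89.4 CPM) and NK cells (104 and 125 CPM), whose neighbors in this order differed within counting error for stromal cells and Tregs in both libraries. In Tregs 1 cell alone held 49.5% of the WT and 45.0% of the KO UMIs. NK cells held Cxcl10 at 0.286 of the empty-droplet level in WT and 0.325 in KO, where macrophage reference genes such as C1qa and Apoe had a median of 0.0292 and 0.0466. The NK value rested on few cells, since 1 cell held 28.5% of its UMIs in WT and 16.6% in KO. After thinning, 9.35% of WT and 15.2% of KO NK cells held a Cxcl10 UMI. CD8 T cells held 33.9 CPM in WT and 64.9 CPM in KO. The DC value, 33.5 CPM from 27 UMIs in WT and 64.2 CPM from 41 UMIs in KO, gave a log2 difference of 0.94 (0.20 to 1.70). A single KO cell held 61.0% of those UMIs, and the difference turned to −1.03 with doubled marker thresholds, to −0.40 with lowered ones and to −1.77 after thinning before gating.

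Cxcl16 was spread broadly over myeloid cells. In macrophages, which held 75.0% of its UMIs in WT and 70.9% in KO, it stood at 942 CPM in WT and 857 CPM in KO. The difference was −0.14 on the log2 scale (−0.17 to −0.11), beside −0.09 for the median gene of the gate, and 14.3% of genes tested were lower in KO past 1.5-fold. Most macrophages carried it, at 90.7% of WT and 80.9% of KO cells after thinning and 95.9% and 86.3% before. The tenth of macrophages with the most Cxcl16 held 23.0% of its UMIs in WT and 27.1% in KO, far less than for Cxcl9 and Cxcl10. Among the 8 gates, those other than macrophages and DCs reached at most 31.1 CPM. The few cells without a Ptprc UMI outside the Hmga2 and stromal gates, 13 in WT and 17 in KO, held 821 and 480.1 CPM. Their DC marker list summed to 5807 CPM in WT and 3248 CPM in KO, against 4121 and 6780 CPM in the DC gate. Mast cell markers summed to 1669 and 1807 CPM in them, so the lack of Ptprc UMIs does not make them nonimmune cells.

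Dendritic cells held Cxcl16 at 623 CPM in WT (502 UMIs) and 825 CPM in KO (527 UMIs), a log2 difference of 0.41 (0.23 to 0.58). In KO this lay within counting error of the macrophage level, whereas in WT macrophages stood above DCs by 0.60. Ccr7, the receptor that takes mature DCs to lymph nodes, split the gate. DCs with at least 2 Ccr7 UMIs held 1407 CPM in WT (25 cells) and 1414 CPM in KO (40 cells), with a log2 difference of 0.01 (−0.19 to 0.21). DCs without them held 258 CPM in WT (41 cells) and 74.8 CPM in KO (26 cells). Ccr7+ cells made up 37.9% of WT and 60.6% of KO DCs, and the part of this share in the DC difference was not tested. Among all barcodes of at least 1000 UMIs the DC difference was 0.08 (−0.08 to 0.24).

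The macrophage gate was then divided by marker UMIs, cell by cell. Interferon-induced macrophages, with at least 5 UMIs of Ifit1, Ifit2, Ifit3 and Rsad2, were 40.9% of the gate in WT and 33.7% in KO. There Cxcl10 stood at 1186 CPM in WT and 1448 CPM in KO, against 229 and 379 CPM in the other macrophages, which is 5.17-fold and 3.82-fold higher. Cxcl9 differed far less between these classes, with 408 and 562 CPM in interferon-induced cells and 372 and 441 CPM in the others. Cxcl16 was slightly lower in interferon-induced cells, at 869 and 793 CPM against 996 and 891 CPM. Cxcl10 was thus the ligand that differed most between these classes, and Cxcl16 differed in the opposite direction.

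Monocyte-type cells, with at least 5 UMIs of Ly6c2, Vcan and Chil3, made up 46.5% of WT and 56.7% of KO macrophages. Their Cxcl9 was 473 CPM in WT and 471 CPM in KO, a log2 difference of −0.01 (−0.06 to 0.05), whereas the other macrophages held 323 and 499 CPM, a difference of 0.63 (0.57 to 0.68). Cxcl10 ran the other way, at 801 and 1027 CPM in monocyte-type cells (0.36) and 518 and 465 CPM in the others (−0.16). Cxcl16 was lower in KO among monocyte-type cells (987 and 748 CPM) and not among the others (907 and 975 CPM). The higher Cxcl9 of KO macrophages thus lay in cells without the monocyte genes and the higher Cxcl10 in cells with them. These differences between classes were not tested.

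Macrophages with at least 10 Arg1 UMIs were 3.74% of the gate in WT (73 cells) and 25.7% in KO (574 cells). They held Cxcl9 at 213 and 469 CPM, Cxcl10 at 546 and 440 CPM and Cxcl16 at 768 and 974 CPM. The other macrophages held Cxcl9 at 396 and 490 CPM, Cxcl10 at 644 and 887 CPM and Cxcl16 at 950 and 809 CPM. The part of this class in the macrophage differences was not tested. Further classes held fewer KO cells. Cycling macrophages, 158 cells in WT and 60 in KO, held Cxcl9 at 193 and 491 CPM. Resident-type macrophages with Folr2 and Fcrls UMIs, 325 and 30 cells, held 254 and 331 CPM of Cxcl9. In WT both classes lay below the level of the whole gate in Cxcl9. In KO the cycling class lay close to it.

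**Figure D2:**
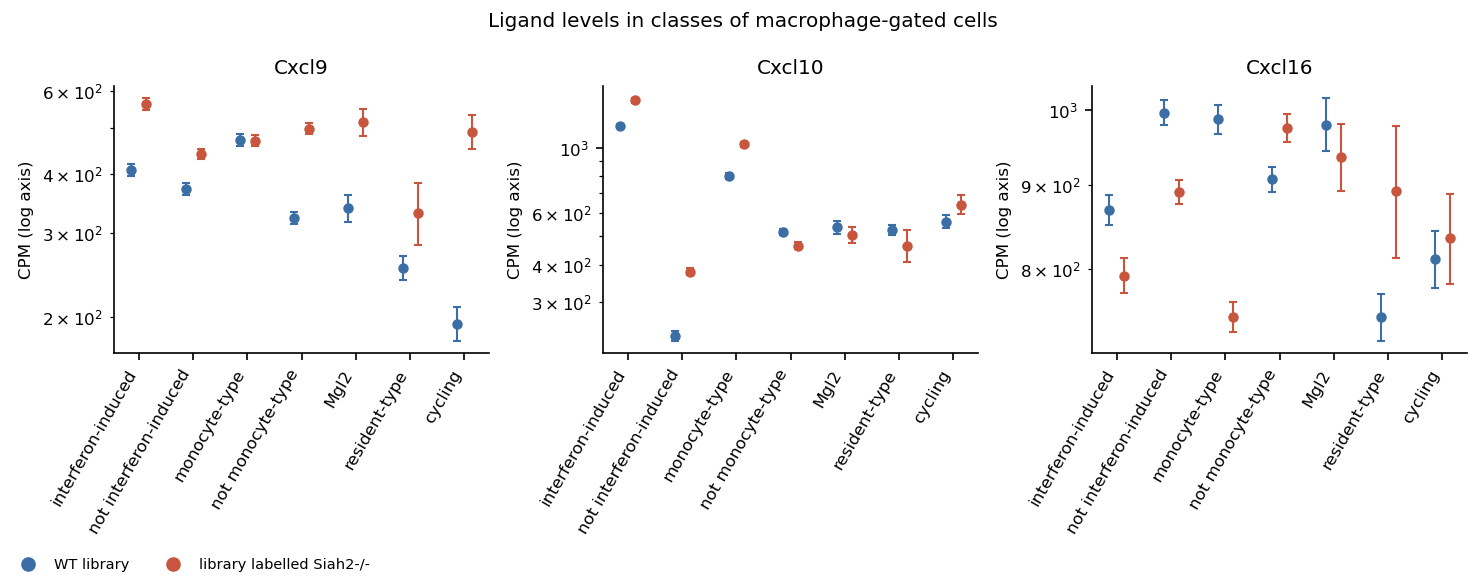
Levels of Cxcl9, Cxcl10 and Cxcl16 in CPM (log axes of unequal range) in classes of macrophage-gated cells, with 95% counting intervals, for the WT library and the library labelled Siah2-/-. Cxcl10 in interferon-induced cells was 1186 CPM in WT and 1448 CPM in KO, while Cxcl9 in monocyte-type cells was 473 and 471 CPM.

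The 3 ligands overlapped within cells. After thinning, 49.5% of Cxcl9-positive WT macrophages also held Cxcl10, against 34.1% of Cxcl9-negative ones, and in KO the shares were 47.6% and 38.6%. Cxcl16 was found in 94.3% of Cxcl9-positive and 88.7% of Cxcl9-negative WT macrophages, and in 88.7% and 75.1% in KO. With Cxcl10 the pattern was absent, since 89.9% of Cxcl10-positive and 91.2% of Cxcl10-negative WT macrophages held Cxcl16, and 78.0% and 83.1% in KO. Detection of Cxcl9 thus went with a larger share of cells holding each of the other ligands, which was not seen for Cxcl10 with Cxcl16.

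Cxcr3, the receptor for Cxcl9 and Cxcl10, was highest in Tregs among the 8 gates. They held 244 CPM (141 UMIs) in WT and 369 CPM (165 UMIs) in KO, a log2 difference of 0.60 (0.26 to 0.93), where 16.8% of the 5222 genes tested were higher in KO past 1.5-fold and 19.4% lower. Under 4 other planned choices the interval held 0. The difference was 0.35 (−0.034 to 0.73) for doubled marker thresholds and 0.27 (−0.28 to 0.85) after thinning before gating. It was 0.17 over all barcodes of at least 1000 UMIs and 0.086 with the smallest WT cell as the minimum in both libraries. In the barcodes outside the cells analysed, an unplanned choice, the interval also held 0, at 0.11 (−0.11 to 0.32). A Cxcr3 UMI was found in 62.0% of WT and 67.2% of KO Tregs after thinning, and in 86.0% and 86.2% before. In WT the Treg level lay within counting error of the CD4 T cell level, whereas in KO Tregs stood above CD8 T cells, the next of the 8 gates, by 1.45. KO cells positive for both T and NK genes, kept apart from these gates, held 174 CPM. CD4 T cells without Foxp3 held 213 CPM in WT, from only 36 UMIs in 16 cells, and 127 CPM in KO, from 247 UMIs in 282 cells. Their log2 difference was −0.75 (−1.26 to −0.20), and 22.2% of the 6983 genes tested in that gate were lower in KO past 1.5-fold. Among the CD8 T, CD4 T, Treg and NK gates, Cxcr3 was lower in KO only in CD4 T cells, where 36 WT UMIs carried the value. That difference was −0.04 with doubled marker thresholds, −1.10 with the smallest WT cell as the minimum in both libraries, −1.22 after thinning before gating, −0.54 (−1.10 to 0.066) without the cell with the most Cxcr3 UMIs in each library and −0.51 (−0.71 to −0.30) over all barcodes of at least 1000 UMIs.

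CD8 T cells held Cxcr3 at 83.5 CPM (399 UMIs) in WT and 135 CPM (973 UMIs) in KO, a log2 difference of 0.69 (0.52 to 0.86). In this gate 10.3% of the 10298 genes tested were higher in KO past 1.5-fold and 13.4% lower. After thinning, 91 of 413 WT and 298 of 745 KO cells held a UMI, and before it 42.6% and 61.6% did, at median depths of 9581 and 8053 UMIs. NK cells held 44.6 CPM (184 UMIs) in WT and 74.0 CPM (389 UMIs) in KO, a difference of 0.73 (0.47 to 0.99) in a gate where 10.8% of 9922 genes were higher and 9.50% lower past 1.5-fold. Their thinned shares were 18.2% and 22.1%, and the difference was 0.37 (−0.014 to 0.77) after thinning before gating. Macrophages held 7.59 and 6.49 CPM, with a UMI in 3.48% and 2.86% of thinned cells. Hmga2-positive CD45- cells, taken as the background, held 1.91 and 2.55 CPM at median depths of 23819 and 26011 UMIs. Cxcr3 in each lymphocyte gate was thus well above background in both libraries.

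Dendritic cells also carried some Cxcr3, at 31.0 CPM in WT (25 UMIs) and 14.1 CPM in KO (9 UMIs), and all of it lay in DCs without Ccr7. In Ccr7+ DCs 0 UMIs were counted in both libraries, which allows up to 14.4 CPM in WT and 10.3 CPM in KO. DCs with Xcr1 and Clec9a held 46.9 CPM in WT and 40.8 CPM in KO, and the other DCs 15.0 and 6.11 CPM. Counts this low do not resolve a difference between the libraries (−1.14, with an interval of −2.42 to 0.01, in a gate where 15.5% of genes were lower past 1.5-fold).

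Within CD8 T cells, Cxcr3 followed the checkpoint receptors inversely. Cells with at least 3 UMIs of Pdcd1, Havcr2, Lag3 and Tnfrsf9 held 71.8 CPM in WT and 114 CPM in KO, and cells with at most 2 held 186 and 232 CPM. The checkpoint-high level was 0.39 of the checkpoint-low level in WT and 0.49 in KO. The log2 difference between the libraries was 0.66 (0.47 to 0.86) in checkpoint-high cells and 0.32 (−0.028 to 0.67) in checkpoint-low ones, which were 11.9% of WT and 25.2% of KO CD8 T cells. Cycling CD8 T cells held 73.5 CPM in WT and 70.0 CPM in KO, a log2 difference of −0.07 (−0.40 to 0.26), whereas those not cycling held 94.9 and 159 CPM, a difference of 0.74 (0.52 to 0.96). The higher KO level of the whole gate was thus found among cells that were not cycling. Cycling cells were 42.4% of WT and 15.4% of KO CD8 T cells. The classes also differed in depth, with medians of 9878 and 9076 UMIs in checkpoint-high and 8194 and 6173 in checkpoint-low cells. Cycling cells had medians of 12392 and 15125 UMIs and the others 8440.5 and 7501. The part of depth in these orders was not tested.

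Cxcr6, the receptor for Cxcl16, was the most abundant of the receptor transcripts in conventional T cells. CD4 T cells held 527 CPM in WT, from 89 UMIs in 16 cells, and 1716 CPM in KO, from 3339 UMIs in 282 cells. The log2 difference was 1.70 (1.40 to 2.02), and 25.9% of genes tested in that gate were higher in KO past 1.5-fold. A Cxcr6 UMI was present in 62.5% of WT and 93.6% of KO cells after thinning. CD8 T cells, which held 59.3% of all Cxcr6 UMIs in WT and 45.2% in KO, had 609 CPM (2908 UMIs) in WT and 950.4 CPM (6849 UMIs) in KO, a difference of 0.64 (0.58 to 0.71). Their thinned shares were 75.1% and 81.6%, and the unthinned shares 88.9% and 87.1%. CD4 and CD8 T cells stood within counting error of each other in WT, and CD4 T cells above CD8 T cells by 0.85 in KO.

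The log2 difference in Cxcr6 was widest in Tregs among the 4 lymphocyte gates. They held 31.1 CPM in WT, from 18 UMIs in 50 cells, and 232 CPM in KO, from 104 UMIs in 58 cells. In KO 1 cell held 22.1% of these UMIs and the tenth of Tregs with the most Cxcr6 held 74.0%. The log2 difference was 2.90 (2.17 to 3.71), and thinned shares were 10.0% and 24.1%. NK cells held 7.52 CPM in WT (31 UMIs) and 25.1 CPM in KO (132 UMIs), a difference of 1.74 (1.17 to 2.35), with thinned shares of 1.56% and 6.57%. In WT 1 NK cell held 29.0% of the UMIs, against 9.85% in KO. Macrophages as background held 1.998 and 8.86 CPM, with a UMI in 0.666% and 3.13% of thinned cells. Free RNA moved with these low values, and the macrophage level was 0.0146 of the empty-droplet level in WT and 0.0356 in KO, no more than the T cell reference genes showed there. The Treg and NK levels were higher than this background in both libraries. The summed T cell marker list stood at 3355 CPM in WT and 5997 CPM in KO within Tregs and at 4147 and 6853 CPM within CD4 T cells. It was 4828 and 5356 CPM within CD8 T cells. The stromal marker list stood at 237 and 13.4 CPM within Tregs, 621 and 112.5 CPM within CD4 T cells and 163 and 42.1 CPM within CD8 T cells. The part of either list in the receptor differences was not tested.

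Checkpoint receptors marked CD8 T cells high in Cxcr6, the reverse of Cxcr3. Checkpoint-high cells held 643 CPM in WT and 1084 CPM in KO, a log2 difference of 0.75 (0.69 to 0.82), and checkpoint-low cells held 303 and 339 CPM, a difference of 0.16 (−0.11 to 0.44). The ratio between these classes was 2.12-fold in WT and 3.20-fold in KO. Cycling cells held 499 and 694 CPM, and those not cycling 733 and 1043 CPM, so that Cxcr6 was higher in KO on both sides of that split. In NK cells Cxcr6 was found mostly in those low in the Ly49 receptors Klra4, Klra7 and Klra8, at 24.3 and 67.9 CPM against 1.33 and 9.14 CPM in the Ly49-high cells. Cxcr3 showed no such order in NK cells, at 42.9 and 71.1 CPM in Ly49-high and 49.4 and 81.9 CPM in Ly49-low cells.

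**Figure D3:**
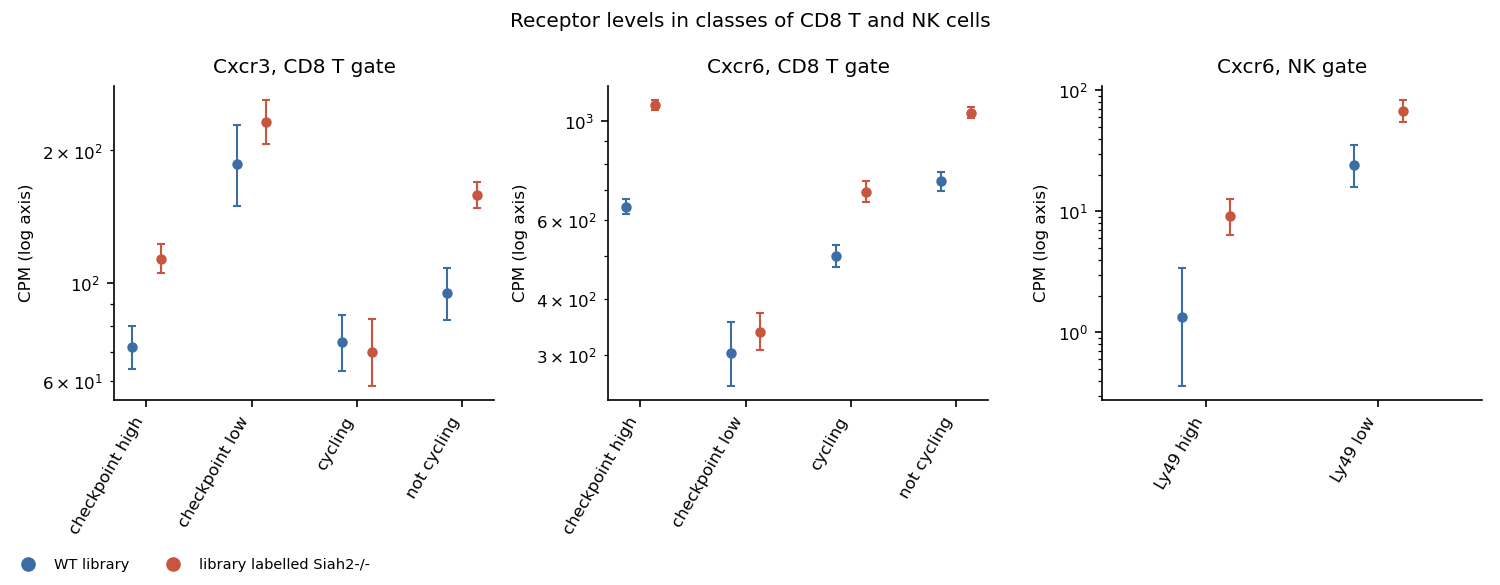
Levels of Cxcr3 and Cxcr6 in CPM (log axes of unequal range) in classes of CD8 T cells and of Cxcr6 in classes of NK cells, with 95% counting intervals, by library. Checkpoint-high CD8 T cells were low in Cxcr3 and high in Cxcr6 in both libraries.

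The overlap of the receptors within cells was counted gate by gate, and differences between gates were not tested. In thinned CD8 T cells, Cxcr6 was found in 69.2% of Cxcr3-positive and 76.7% of Cxcr3-negative WT cells and in 76.9% and 84.8% in KO. In CD4 T cells the shares were 66.7% and 57.1% in WT, from 16 cells, and 90.6% and 94.9% in KO. In Tregs Cxcr6 was found in 16.1% of Cxcr3-positive and 0 of 19 Cxcr3-negative WT cells, and in 20.5% and 31.6% in KO, where 14 cells in all held it. In NK cells it was found in 2.86% of Cxcr3-positive and 1.27% of Cxcr3-negative WT cells and in 12.2% and 4.97% in KO. At this depth a UMI was missed in many cells, since without thinning Cxcr6 was found in 20.0% of WT and 31.0% of KO Tregs, so these shares count detection and not the cells that express a gene.

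The receptor values depended on which barcodes counted as cells. The smallest cell kept in the study's set held more UMIs in WT than in KO, and many WT lymphocyte barcodes lay under that limit. Outside the set, the gates of barcodes with at least 1000 UMIs held 386 Tregs in WT and 155 in KO, 268 and 413 CD4 T cells, 662 and 301 CD8 T cells, and 765 and 610 NK cells. In Tregs outside the set, Cxcr3 stood at 450 CPM in WT and 484 CPM in KO, a log2 difference of 0.11 (−0.11 to 0.32). Cxcr6 stood at 140 CPM in WT and 240.2 CPM in KO, a difference of 0.78. Treg Cxcr6 in WT was thus several-fold higher in these smaller barcodes than in the 50 Tregs of the set, while in KO the values of both kinds of barcode were close.

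In CD8 T cells outside the set the direction turned. Cxcr3 was 205 CPM in WT and 186 CPM in KO (−0.14, with an interval of −0.34 to 0.05), and Cxcr6 was 821 and 601 CPM (−0.45). CD4 T cells there held Cxcr6 at 1415 CPM in WT and 1754 CPM in KO, and Cxcr3 at 270 and 257 CPM. NK cells there held Cxcr3 at 79.6 and 95.2 CPM and Cxcr6 at 34.1 and 40.1 CPM. Both NK intervals held 0, at 0.26 (−0.009 to 0.524) for Cxcr3 and 0.23 (−0.182 to 0.645) for Cxcr6. Over all barcodes of at least 1000 UMIs, Cxcr6 remained higher in KO in Tregs (1.17), NK cells (0.60), CD4 T cells (0.44) and CD8 T cells (0.35), and Cxcr3 in NK cells (0.41). The Cxcr3 differences were 0.17 (−0.01 to 0.35) in Tregs, 0.14 (0.02 to 0.26) in CD8 T cells and −0.51 in CD4 T cells. With the smallest WT cell as the minimum in both libraries, Cxcr3 in Tregs differed by 0.09 (−0.34 to 0.50). The part of the cell filter in the receptor differences was not tested further.

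**Figure D4:**
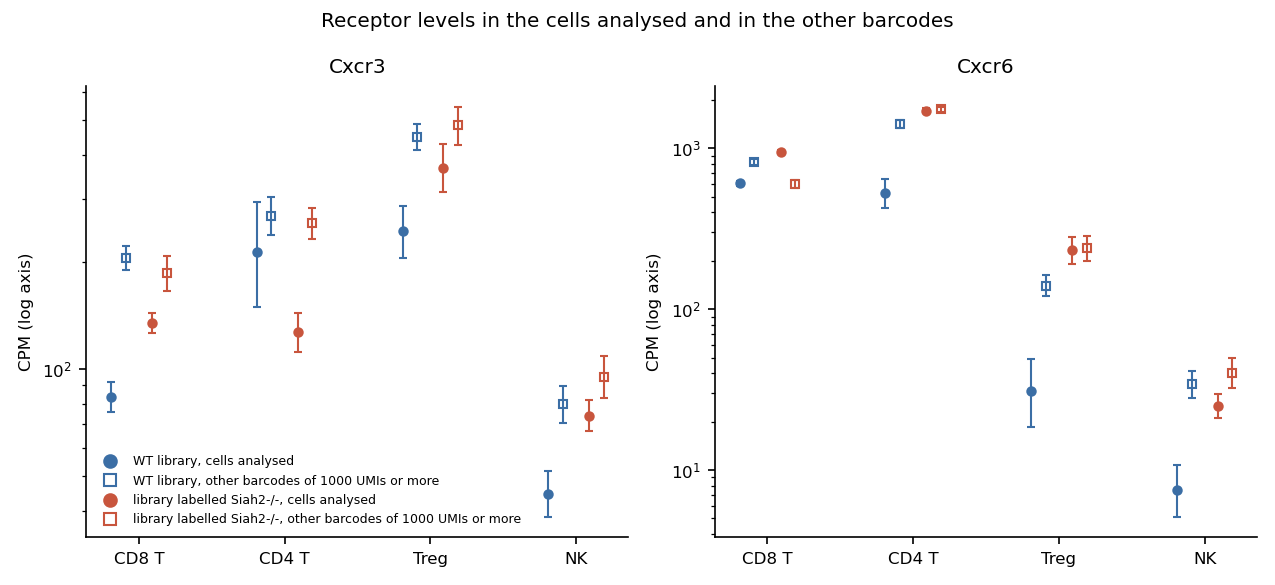
Cxcr3 and Cxcr6 levels in CPM (log axes) by gate in the cells analysed (filled circles) and in the other barcodes of at least 1000 UMIs (open squares), with 95% counting intervals. In WT every gate held more of both receptors outside the cells analysed, and for Cxcr6 in CD8 T cells the order of the libraries was opposite in the other barcodes.

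Macrophages outside the set held all 3 ligands at lower levels in KO. Cxcl9 stood at 399 CPM in WT and 297 CPM in KO, Cxcl10 at 1193 and 914 CPM, and Cxcl16 at 590.2 and 404 CPM. These were 1332 WT and 597 KO barcodes with median depths of 5378 and 3795 UMIs. The higher Cxcl9 and Cxcl10 of KO macrophages were therefore seen in the cells analysed and not in the smaller barcodes.

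**Figure D5:**
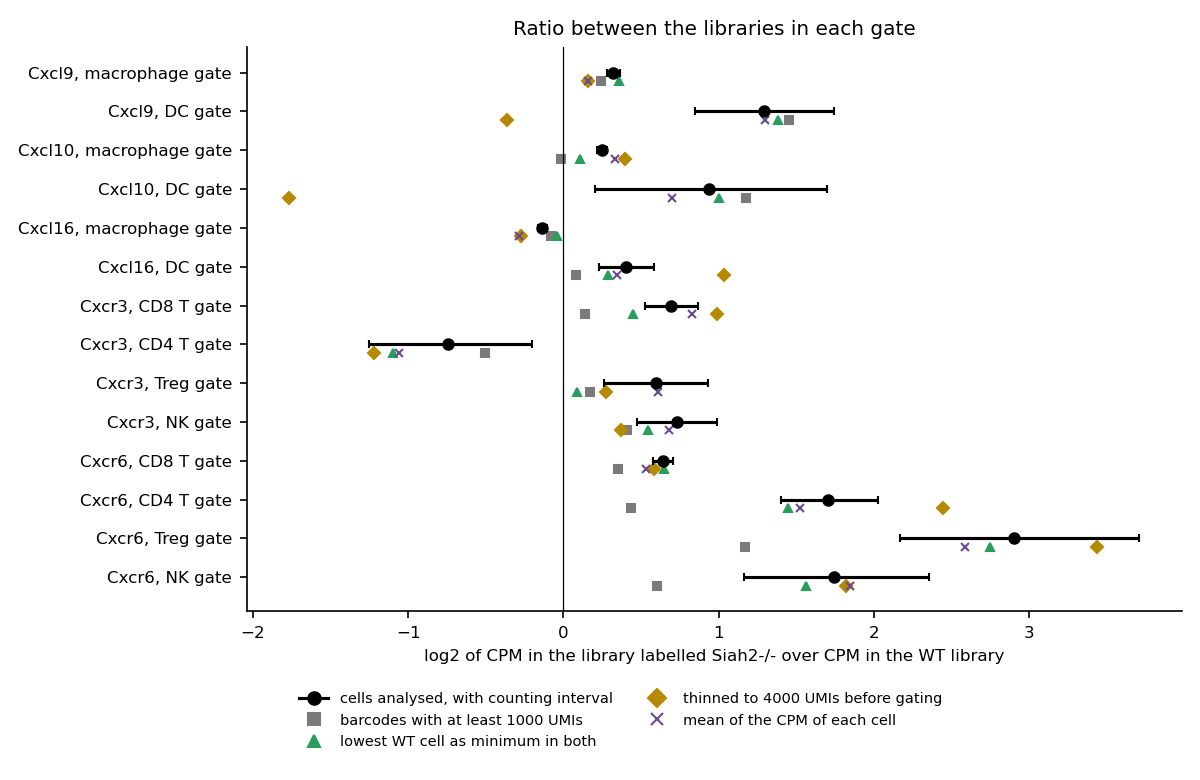
Log2 of KO CPM over WT CPM for each gene and gate, with 95% counting intervals for the cells analysed (black circles) and the values under other choices of cells and depth (other symbols). Cxcr6 lay above 0 in the 4 gates under the choices plotted, which do not include the barcodes outside the cells analysed, where CD8 T cells gave −0.45, while Cxcl9 and Cxcl10 in DCs fell on both sides of 0.

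Other genes of these axes were counted by lists of inducers, ligand proteases, receptor signalling genes and other chemokines. Of 11 inducers and interferon gamma signalling genes, 3 were higher in KO macrophages past 1.5-fold and 0 lower, beside 9.45% and 14.3% of all genes tested there, and the list median was 0.18 against −0.09 for all genes. These were Irf1, a transcription factor of the interferon response (109 CPM in WT and 185 in KO), Socs1, an inhibitor of the same pathway (69.7 and 119 CPM), and Ifng itself (2.40 and 9.67 CPM). Ifng in macrophages was low and moved with the T cell marker list given above. The Ifng level was 494.5 CPM in WT and 565.5 CPM in KO in CD8 T cells (2363 and 4075 UMIs), 349 and 828 CPM in CD4 T cells (59 and 1611 UMIs) and 73.5 and 153 CPM in NK cells (303 and 805 UMIs). In DCs 3 of 9 tested inducers were higher and 0 lower past 1.5-fold, beside 17.0% and 15.5% of all genes, with medians of 0.56 for the list and −0.02 for all genes. In CD8 T cells 3 of 11 were higher and 1 lower, beside 10.3% and 13.4%, with medians of 0.22 and −0.08, and among the higher was the receptor gene Ifngr1 (365 and 548 CPM).

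Of the proteases, Adam10, which cleaves Cxcl16 from the membrane, stood at 35.3 CPM in WT and 31.1 CPM in KO macrophages. Adam17, a related sheddase, stood at 42.9 and 46.6 CPM there. Dpp4, which trims Cxcl9 and Cxcl10, was at 10.1 and 6.58 CPM in macrophages and was the 1 of 3 list members lower past 1.5-fold, beside 14.3% of all genes. Of the 11 receptor signalling genes, those higher past 1.5-fold among those tested were 5 of 11 in macrophages, 3 of 7 in DCs, 3 of 11 in CD8 T cells, 4 of 9 in CD4 T cells, 2 of 9 in Tregs, 3 of 11 in NK cells and 3 of 9 in Hmga2-positive cells, and 1 was lower, in Tregs. Among all genes, those higher past 1.5-fold were 9.45% in macrophages, 17.0% in DCs, 10.3% in CD8 T cells and 25.9% in CD4 T cells. They were 16.8% in Tregs, 10.8% in NK cells and 12.1% in Hmga2-positive cells, and 19.4% of all genes were lower in Tregs. Rgs1, which dampens signals of receptors coupled to G proteins, was higher past 1.5-fold in each of the 7 gates tested, for example at 424 and 857 CPM in CD8 T cells. Rgs2 was higher in CD8 T, CD4 T, Treg and NK cells. Tbx21, the T-bet gene that drives Cxcr3, was within 1.5-fold in CD8 T cells (54.6 and 63.8 CPM) and NK cells (56.8 and 74.6 CPM). Of the other ligands and receptors, 2 of 5 tested were higher and 1 lower in KO macrophages past 1.5-fold, beside 9.45% and 14.3% of all genes. The lower was Cxcl12, a ligand of stromal cells (2.31 and 0.806 CPM). The stromal marker sum in macrophages moved with Cxcl12, from 203.6 to 55.0 CPM, and its part in that difference was not tested. The higher were the Cxcl12 receptor Cxcr4 (13.5 and 28.7 CPM) and Ccl5. Ccl5, a T cell and NK attractant that those cells also make, was at 893 CPM in WT and 1972 CPM in KO macrophages and at 2527 and 7299 CPM in DCs. The T cell marker sum in macrophages moved with it, from 27.6 to 75.5 CPM, and its part in the Ccl5 difference was not tested.

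The genes most like each member were ranked by Pearson correlation of log2(CPM + 10) over 10 gates in both libraries, which gave 20 points that share libraries and depth. Cd40 (r = 0.985), Pirb (0.985) and BC028528 (0.983) were most like Cxcl16, and Il18bp (0.959), Ap2a2 (0.948) and Lpcat2 (0.945) most like Cxcl9. Cxcl10 had weaker matches in Ccl2 (0.886), Atp6ap1 (0.878) and Hmox1 (0.873). Rnf138 (0.979), Grap (0.978) and Xlr4a (0.972) were most like Cxcr3, and Unc5cl (0.964), Csf2 (0.961) and Ly6g5b (0.959) most like Cxcr6. Between members, r was 0.653 for Cxcl9 with Cxcl10, 0.883 for Cxcl9 with Cxcl16, 0.355 for Cxcl10 with Cxcl16 and 0.783 for Cxcr3 with Cxcr6. Over these gates Cxcl9 was thus closer to Cxcl16 than to its neighbor Cxcl10.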

How the data were processed

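Droplet libraries (10x Genomics 3′ v2) were made from 1 suspension of tumor cells per genotype. The authors made the deposited unfiltered matrices of UMI counts with bcl2fastq and Cell Ranger on mm10/GRCm38, per the submitters' notes, and the versions are not given in the sources used here. The authors also deposited a raw count table of the cells they kept and a table of natural log values per cell, which served here only to define the cells analysed. The table and the matrices differed in 1934 WT and 1879 KO values, none of them in the 5 members. Matrix counts were therefore used for the genes of the table.

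Gates were set on UMI sums of markers: at least 3 for T cells (Cd3d, Cd3e, Cd3g), 2 for NK cells (Ncr1, Klrb1c), 3 for macrophages (Csf1r, Adgre1, Fcgr1, C5ar1 and a further marker that is not reported here) and 2 for DCs (Flt3, Zbtb46, Xcr1, Clec9a). T cells were split by Cd8a and Cd8b1, Cd4 and Foxp3. CD45- cells had no Ptprc UMI. No doublet caller was run, and barcodes positive for more than 1 gate were kept apart, except for joint classes of T with NK genes and of macrophage with DC genes. Counts were summed per gate and library. CPM carry exact Poisson intervals, shares exact binomial (Clopper-Pearson) intervals and log2 ratios exact conditional binomial intervals. Genes with at least 20 UMIs over both libraries entered the background, and a difference was called past 1.5-fold. Named genes were the 5 members, the listed axis genes past 1.5-fold with an interval on 1 side of 0, and the 3 genes most like each member. Adam10, Adam17 and Tbx21 in the gates where they were not called were named beside them for their role, after their values were seen. Members, lists and gates were chosen with earlier results of these data known. Alternatives changed the marker thresholds, the barcodes kept, the depth, the scaling and the averaging. Scripts were tested on simulated data. Python 3.11.15, numpy 2.4.6, scipy 1.17.1, pandas 2.3.3 and matplotlib 3.10.9 were used. Columns of other samples left out numbered 0. Cxcl11, Ackr1, Cxcl13, Trac, Trbc2 and Tyr were not in the gene table and were not analysed here. RefSeq promoter windows matched 4 of the 5 members, and Cxcl16 had no entry.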

Additional observations from a re-analysis of the deposited data

Results flagged for a closer look

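Signals lay outside the gated cells. In empty droplets, the log2 of KO over WT CPM was 0.45 for Cxcl9, 0.55 for Cxcr3, 0.13 for Cxcl16 and 0.86 for Cxcr6. In barcodes positive for more than 1 gate it was 0.44 for Cxcl9, 0.26 for Cxcl10 and 0.43 for Cxcr6.

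Directions differed between cell types, and these differences were not tested. Cxcr3 was higher in KO in CD8 T cells (0.69), Tregs (0.60) and NK cells (0.73) and lower in CD4 T cells (−0.75). The interval held 0 in Tregs under several planned choices, such as the smallest WT cell as the minimum (0.086). It also held 0 in NK cells after thinning before gating (0.37), and in CD4 T cells with doubled thresholds (−0.037) or without the cell with the most Cxcr3 UMIs (−0.54). Outside the cells analysed it held 0 in CD8 T cells (−0.14), CD4 T cells (−0.07), Tregs (0.11) and NK cells (0.26). Cxcl16 was lower in KO macrophages (−0.14) and higher in KO DCs (0.41). The DC difference was 0.08 (−0.08 to 0.24) over all barcodes of at least 1000 UMIs. Outside the cells analysed it reversed to −4.31, from few KO UMIs.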

How the results depend on the processing

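Of 154 alternative values for the 14 log2 differences, 144 kept the direction. Of all values, 99 lay within the counting interval of the main value, 45 moved outside it and 10 reversed. Some choices changed little by their nature. All 14 values stayed within the interval with all cells of the raw count table, with free RNA subtracted, and without the cell with the most UMIs of the gene. No paired analysis was possible because each genotype has 1 library and the result comes from no test. Precision was limited by the UMIs of rare gates, such as 16 WT CD4 T cells and 66 DCs per library, and the cause of each change below was not tested.

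With all barcodes of at least 1000 UMIs, Cxcl10 in macrophages reversed (−0.016), and other differences moved: Cxcl9 in macrophages 0.24, Cxcl16 in macrophages −0.081 and in DCs 0.082, Cxcr3 in CD8 T cells 0.14, NK cells 0.41 and Tregs 0.17, and Cxcr6 in CD4 T cells 0.44, CD8 T cells 0.35, NK cells 0.60 and Tregs 1.17. With only the barcodes outside the cells analysed, an alternative added after seeing the data, Cxcl9 (−0.43) and Cxcl10 (−0.38) in macrophages, Cxcl16 in DCs (−4.31, from 3 KO UMIs), and Cxcr3 (−0.14) and Cxcr6 (−0.45) in CD8 T cells reversed. There Cxcl16 in macrophages was −0.55, Cxcl9 and Cxcl10 in DCs both 2.13, Cxcr3 −0.07 in CD4 T cells, 0.26 in NK cells and 0.11 in Tregs, and Cxcr6 0.31, 0.23 and 0.78. With the smallest WT cell as the minimum in both libraries, Cxcl10 in macrophages was 0.10, Cxcl16 −0.04, and Cxcr3 0.45 in CD8 T cells and 0.086 in Tregs.

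Thinned to 4000 UMIs before gating, DCs reversed for Cxcl9 (−0.36) and Cxcl10 (−1.77) and gave 1.03 for Cxcl16. Macrophages then gave 0.16 for Cxcl9, 0.40 for Cxcl10 and −0.28 for Cxcl16, and Cxcr3 was 0.99 in CD8 T and 0.37 in NK cells, and Cxcr6 2.44 in CD4 T cells. Doubled thresholds gave −1.03 for Cxcl10 and 0.80 for Cxcl16 in DCs, 0.36 for Cxcl9 in macrophages and −0.037 for Cxcr3 in CD4 T cells. Lowered thresholds gave −0.40 for Cxcl10 and 0.70 for Cxcl16 in DCs, 0.33 for Cxcl10 and −0.091 for Cxcl16 in macrophages, and 0.71 for Cxcr6 in CD8 T cells. The mean of single-cell CPM gave 0.16 for Cxcl9, 0.33 for Cxcl10 and −0.29 for Cxcl16 in macrophages and 0.53 for Cxcr6 in CD8 T cells. Centring on the median gene gave 0.41, 0.33, −0.05 and 0.72. With at least 5 in place of 20 UMIs, genes lower in KO NK cells past 1.5-fold were 14.8% of those tested.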
